A study of Rattus norvegicus with 4 samples.

Results

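The genes described here are 10 markers of T cells and natural killer cells: Cd3e, Cd3g, Cd8a, Cd2, Nkg7, Prf1, Gzmb, Klrd1, Il2rb and Eomes. Each was taken from the probe sets that carry a single gene symbol in the platform annotation, and a gene with several probe sets was represented by the brightest of them, by its mean over the 4 arrays. This gave values for 9 of the 10 genes, out of 18166 genes tested; Il2rb, a receptor chain shared by interleukin 2 and interleukin 15, was not analysed here.

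Total RNA of the whole uterus of Sprague Dawley rats aged 10 to 12 weeks was measured on day 5 of pregnancy, in the period before implantation, on 4 Affymetrix whole-transcript arrays. The ormeloxifene group (2 arrays) came from rats that took 1.25 mg per kg of ormeloxifene by mouth, in gum acacia, on pregnancy day 1, and the vehicle group (2 arrays) from pregnant rats that received vehicle alone. Ormeloxifene, an oral contraceptive, binds oestrogen receptors and acts as agonist or antagonist depending on the tissue. The arrays of each group are labelled as biological replicates 1 and 2, and the sources used here do not say whether the RNA of an array was pooled from several rats. With 2 arrays a group, precision is limited by their number.

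T cells recognise antigen through a receptor whose signal passes through the CD3 chains, and cytotoxic T cells carry the coreceptor CD8. Natural killer cells use inherited receptors in place of that receptor, and both cell types kill by releasing perforin and granzymes from granules. Interleukin 15 maintains natural killer cells, which become abundant in the rodent uterus once the decidua forms after implantation. The comparison asks whether transcripts that mark these cells differed between the groups before that time. In RNA of whole tissue, fewer cells of a type and less RNA per cell cannot be told apart.

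Small differences in both directions were seen, and 0 of the 9 markers passed an adjusted p under 0.05 by limma, where 0% of the 18166 genes did. At an unadjusted p under 0.05 there were also 0 markers, against 2.2% of all genes. The marker signal was higher with ormeloxifene for 7 of 9 genes, where 53.4% of all genes were higher, and lower for Gzmb and, by a margin that turned to 0.023 higher on the values as deposited, Prf1. The median difference of the 9 was 0.21 on the log2 scale, beside 0.02 over all genes tested, and it was 0.13 without ormeloxifene replicate 2. The differences ran from -0.53 for Gzmb to 0.49 for Cd8a. The groups did not overlap for 5 markers, 4 higher and 1 lower, where 25.7% of all genes do not overlap. Only for Cd3e, Gzmb and Eomes did the difference exceed the gap between the replicates of both groups, and 16% of all genes meet that condition. With the replicate number as a block in the fit, 3 markers had an unadjusted p under 0.05, beside 6.76% of all genes. These were Cd8a and Cd2 on the higher side (3.74% of all genes) and Gzmb on the lower side (3.02%), and 0 markers passed the adjusted threshold, which 0.0275% of all genes did. All differences below are ormeloxifene minus vehicle in log2 signal after quantile normalization, given with their standard error, and all 9 adjusted p-values were 1.00 by limma.

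**Figure D1:**
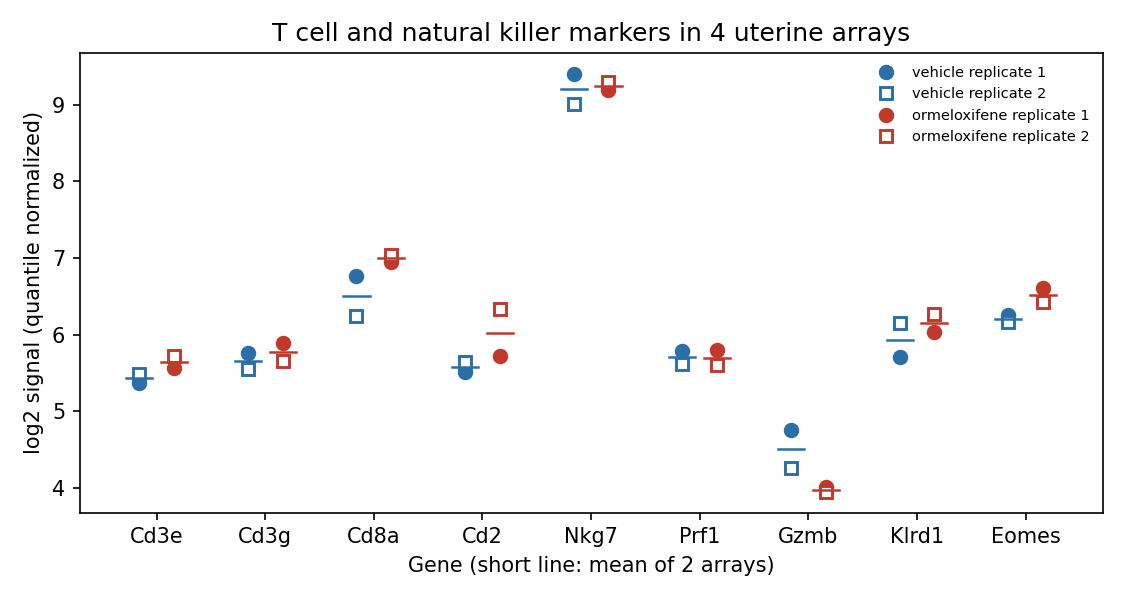
Log2 signal (vertical axis, quantile normalized) of the 9 measured markers in each of the 4 arrays, with vehicle in blue, ormeloxifene in red, replicate 1 as filled circles and replicate 2 as open squares; short lines are means of 2 arrays. The groups are apart for Cd3e, Cd8a, Cd2, Gzmb and Eomes and overlap for Cd3g, Nkg7, Prf1 and Klrd1.

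Among the T cell genes, the coreceptor chain Cd8a and the adhesion receptor Cd2 differed most. Cd8a, which in the rat is carried by natural killer cells as well as by cytotoxic T cells, measured 6.95 and 7.04 in ormeloxifene replicates 1 and 2 and 6.76 and 6.25 in vehicle replicates 1 and 2. The ormeloxifene arrays were both above the vehicle arrays and close together, whereas vehicle replicate 2 lay well below vehicle replicate 1. The difference was 0.49 ± 0.24, or 1.41-fold, with a 95% interval from -0.07 to 1.06 (limma, unadjusted p = 0.0776). It was 0.19 between the replicates numbered 1 and 0.80 between those numbered 2, and leaving out vehicle replicate 1 gave 0.75, leaving out vehicle replicate 2 gave 0.24. The gap between the vehicle replicates, 0.52, was slightly wider than the difference between the groups.

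Cd2, which in rodents binds CD48 on partner cells and is shared by T and natural killer cells, measured 5.72 and 6.33 with ormeloxifene and 5.52 and 5.65 with vehicle. Here the groups were also apart, but ormeloxifene replicate 2 alone was high, and ormeloxifene replicate 1 stood just above the vehicle arrays. The difference was 0.45 ± 0.26, or 1.36-fold, with an interval from -0.15 to 1.04. Without ormeloxifene replicate 1 it was 0.75, and with ormeloxifene replicate 2 left out instead it was 0.14.

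The CD3 chains, which carry the signal of the T cell receptor and define T cells, differed less. Cd3e measured 5.56 and 5.72 with ormeloxifene and 5.38 and 5.49 with vehicle, a difference of 0.21 ± 0.21 with an interval from -0.27 to 0.69. The groups did not overlap, and the difference was 0.18 between the replicates numbered 1 and 0.24 between those numbered 2; it was 0.13 with ormeloxifene replicate 2 left out. Cd3g measured 5.89 and 5.65 with ormeloxifene and 5.77 and 5.55 with vehicle, so that the groups overlapped and replicate 1 was the higher array in each. Its difference was 0.11 ± 0.22. Cd3d lies between these genes on the rat chromosome, in the order Cd3g, Cd3d, Cd3e. It differed by 0.25 ± 0.22, or 0.10 with vehicle replicate 1 left out. Its groups overlapped, and the difference was 0.49 between the replicates numbered 1 and -0.0010 between those numbered 2. The remaining chain of the complex, Cd247, differed by 0.04 ± 0.25.

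Of the 9 markers, Gzmb, a granule protease, had the lowest estimate, and those of the granule genes Prf1 and Nkg7 were near 0. Gzmb encodes granzyme B, a serine protease that triggers apoptosis in target cells, and its kept probe set measured 4.01 and 3.95 with ormeloxifene and 4.75 and 4.26 with vehicle. The ormeloxifene arrays lay close together below both vehicle arrays. The difference was -0.53 ± 0.24, or 1.44-fold lower, with an interval from -1.08 to 0.03 (limma, unadjusted p = 0.0600). It was -0.74 between the replicates numbered 1 and -0.31 between those numbered 2, and leaving out vehicle replicate 1 gave -0.28, leaving out vehicle replicate 2 gave -0.77. The kept probe set was dim, at the 9.24th percentile of mean signal among the genes tested, a position that also depends on how well its probes bind. With a robust variance that follows mean signal, its unadjusted p was 0.138 by limma.

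The 3 probe sets annotated to Gzmb disagreed. Probe set 17703240, which was kept, had the difference of -0.53 given above. Probe set 17703220 measured 3.03 and 3.13 with ormeloxifene and 3.45 and 3.14 with vehicle, a difference of -0.22. Probe set 17703201 measured 2.83 and 3.66 with ormeloxifene and 2.21 and 3.44 with vehicle, a difference of 0.42, with both arrays numbered 2 above both arrays numbered 1. With the 3 averaged, Gzmb differed by -0.11 (limma, unadjusted p = 0.633). In the RefSeq annotation Gzmb lies beside Gzmc and Gzmbl3, granzyme genes of the same family, and the probe sequences that would show which copies a probe set detects were not used here. The value of Gzmb is therefore uncertain.

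**Figure D2:**
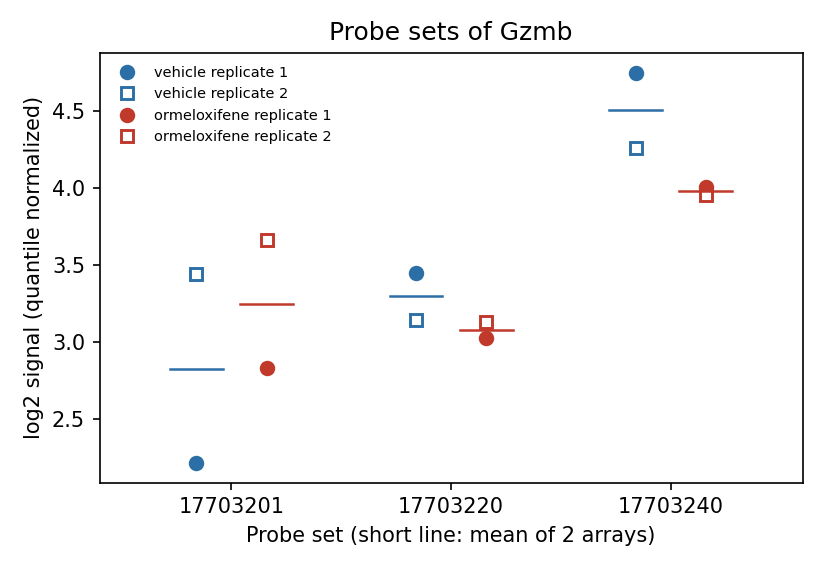
Log2 signal (vertical axis, quantile normalized) of the 3 probe sets annotated to Gzmb in the 4 arrays, with colours and symbols for group and replicate as in the legend and short lines at the mean of 2 arrays. Probe sets 17703240 and 17703220 have lower means with ormeloxifene, by 0.53 and 0.22, and probe set 17703201 has a higher mean, by 0.42.

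Prf1 encodes perforin, which opens pores in the membrane of the target cell. It measured 5.80 and 5.60 with ormeloxifene and 5.78 and 5.62 with vehicle, and in each group replicate 1 was the higher array. The difference was -0.0018 ± 0.21, with an interval from -0.49 to 0.49. Nkg7, a granule membrane protein needed for normal granule release, measured 9.18 and 9.30 with ormeloxifene and 9.40 and 9.002 with vehicle. The vehicle arrays were at both ends of the range, with the ormeloxifene arrays between them. Its difference was 0.04 ± 0.23 with an interval from -0.49 to 0.57, and it changed sign between the replicates numbered 1 (-0.22) and those numbered 2 (0.30). The intervals of both genes allow a difference of about these bounds in either direction.

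Of the natural killer genes, Klrd1 encodes a lectin-like receptor chain that pairs with the NKG2 proteins and reads class I histocompatibility molecules. It measured 6.03 and 6.28 with ormeloxifene and 5.71 and 6.15 with vehicle, so that the groups overlapped and vehicle replicate 1 was the low array. The difference was 0.23 ± 0.24, and leaving out vehicle replicate 1 gave 0.0052, leaving out vehicle replicate 2 gave 0.45. Eomes, a T-box transcription factor of natural killer cells and effector CD8 T cells, measured 6.61 and 6.42 with ormeloxifene and 6.25 and 6.16 with vehicle. Both ormeloxifene arrays were above both vehicle arrays, and the difference of 0.31 ± 0.21 was wider than either gap between replicates. Its interval ran from -0.17 to 0.80 (limma, unadjusted p = 0.175), and the difference was 0.36 between the replicates numbered 1 and 0.26 between those numbered 2. The markers were also placed by the size of the difference in either direction among all genes tested. Gzmb stood at the 97.0th percentile by its kept probe set alone, Cd8a at the 96.2nd, Cd2 at the 94.7th and Eomes at the 85.7th. Klrd1 stood at the 73.4th, Cd3e at the 69.8th, Cd3g at the 43.5th, Nkg7 at the 16.2nd and Prf1 at the 0.72nd.

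**Figure D3:**
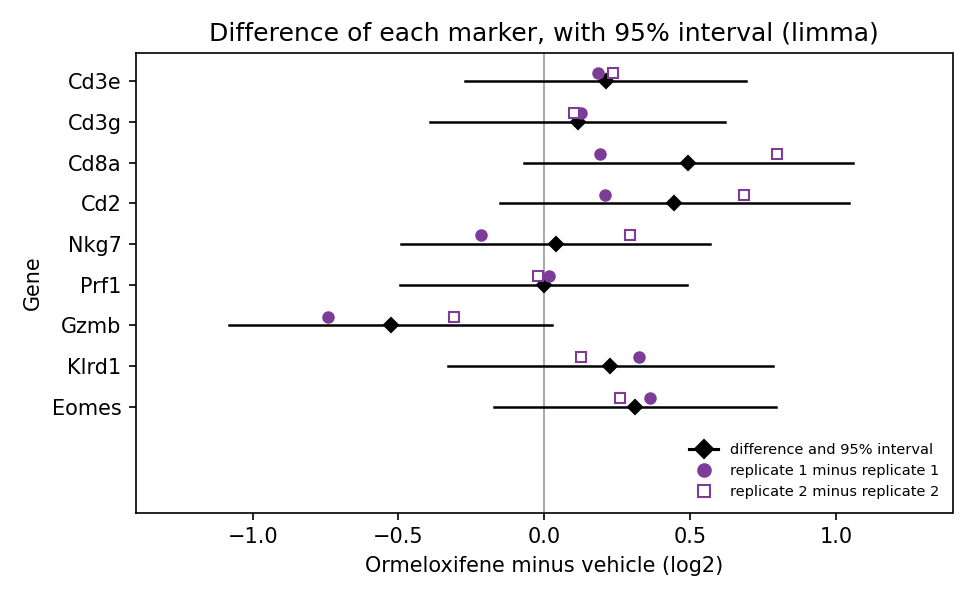
Ormeloxifene minus vehicle (horizontal axis, log2) for the 9 markers, as diamonds with the 95% interval from limma; purple circles and squares are the differences between the replicates numbered 1 and numbered 2. All 9 intervals include 0, and the values of the numbers lie farthest apart for Cd8a (0.19 and 0.80).

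The sequences before the start of the 3 markers with the widest differences are given to show what lies there for factors known to act in these cells. They are the 250 bases before the annotated start, 5′ to 3′ on the strand of the gene, from the RefSeq table of build GRCr8, which held 8 of the 10 markers; Klrd1 and Il2rb had no entry. Capitals mark matches, on either strand, to GGTGTG (the core letters of a T-box site), TGTGGT (a RUNX site) or TTCNNNGAA (a STAT site).
Cd8a (GRCr8 chr4:104923866-104924115, plus strand): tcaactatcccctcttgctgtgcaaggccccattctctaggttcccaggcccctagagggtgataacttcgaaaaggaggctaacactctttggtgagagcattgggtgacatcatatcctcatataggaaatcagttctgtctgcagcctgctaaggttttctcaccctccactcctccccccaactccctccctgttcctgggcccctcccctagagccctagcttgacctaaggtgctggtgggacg
Cd2 (GRCr8 chr2:191412660-191412909, minus strand): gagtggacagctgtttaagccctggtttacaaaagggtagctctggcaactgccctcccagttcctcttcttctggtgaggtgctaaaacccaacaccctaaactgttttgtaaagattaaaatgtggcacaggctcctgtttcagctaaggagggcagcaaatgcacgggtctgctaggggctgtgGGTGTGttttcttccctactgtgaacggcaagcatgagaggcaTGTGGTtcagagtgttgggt
Gzmb (GRCr8 chr15:34462470-34462719, minus strand): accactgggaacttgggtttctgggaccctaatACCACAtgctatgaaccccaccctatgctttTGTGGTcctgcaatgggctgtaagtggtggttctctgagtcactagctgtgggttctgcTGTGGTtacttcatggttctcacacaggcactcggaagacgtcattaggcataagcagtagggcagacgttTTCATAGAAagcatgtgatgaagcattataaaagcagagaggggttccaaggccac

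Cd2 held GGTGTG at 63 to 58 bases before its start and TGTGGT at 20 to 15 bases before it. Gzmb held 3 matches to TGTGGT and 1 to TTCNNNGAA, the latter at 56 to 48 bases before the start. Cd8a held none of these letters in this window. Over the 8 markers, TGTGGT was in 5 (Cd2, Nkg7, Prf1, Gzmb and Eomes), TTCNNNGAA in 2 (Nkg7 and Gzmb) and GGTGTG in 1 (Cd2). Of 33469 windows of the same length in the table, 14.5% held TGTGGT, 7.67% TTCNNNGAA and 15.4% GGTGTG. The matches overlapped in none of the 3 sequences shown. Such a match is a run of letters, not a measured binding site, and markers with TGTGGT were among both the higher and the lower.

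Genes related to these cells, in 6 lists with 94 of 114 genes measured, were higher with ormeloxifene in 65 and lower in 29. That is 69.1% higher, against 53.4% of all genes, with a median of 0.10. The lists are not particular to T and natural killer cells, since genes such as Tnfsf10, Lcp2 and Nfil3 are also active in other cells. By limma, 0 passed the adjusted threshold, and 1 gene in each direction had an unadjusted p under 0.05, where 1.12% of all genes were higher and 1.08% lower at that level. With the replicate number as a block, 8 of the 94 had an unadjusted p under 0.05, 7 on the higher side and 1 on the lower (Ccl5, Cd5, Cd7, Il2ra, Klrk1, Tnfsf10 and Tox higher, Nfil3 lower), beside 3.74% and 3.02% of all genes, and 0 passed the adjusted threshold. The groups did not overlap for 26 of the 94, or 27.7%, beside 25.7% of all genes. Genes of 1 array share that array's RNA and processing, so these shares are descriptions.

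In the list of T cell receptor components and signalling, 16 of 18 genes were higher and 2 lower, where 53.4% of all genes were higher. The list median was 0.19, with 0 genes at an unadjusted p under 0.05. Several of the 18 were dim. Ctla4, Cd40lg, Ubash3a, Cd3d and Skap1 lay at the 8.28th, 10.7th, 14.9th, 18.6th and 21.7th percentile of mean signal. With genes below the 25th percentile left out, the list median was 0.22. Cd7, a surface protein of T and natural killer cells, measured 7.43 and 7.17 with ormeloxifene and 6.90 and 6.78 with vehicle, a difference of 0.46 ± 0.21. Cd5, an inhibitory receptor of T cells, measured 6.87 and 6.71 against 6.47 and 6.33, a difference of 0.39 ± 0.21. In both genes the groups were apart, and the difference was similar between the replicates numbered 1 and 2 (0.53 and 0.39 for Cd7, 0.40 and 0.38 for Cd5). The adaptor Lcp2, which is also used by myeloid cells, differed by 0.34 ± 0.21. Cd4, the coreceptor of helper T cells and in the rat also a macrophage protein, differed by 0.33 ± 0.22, or 0.19 with vehicle replicate 1 left out.

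Natural killer receptors and adaptors were mixed, 12 higher and 7 lower of 19, with a median of 0.09 that was -0.08 between the replicates numbered 1 and 0.15 between those numbered 2. Leaving out ormeloxifene replicate 1, ormeloxifene replicate 2 or vehicle replicate 2 gave medians of 0.20, 0.047 and 0.24. In the fit without a block, the smallest p-values were those of the inhibitory lectin-like receptor Klri1 (0.34 ± 0.20), the Fc receptor Fcgr3a (0.35 ± 0.24) and the activating receptor Cd226 (0.37 ± 0.27), none under 0.05. Leaving out 1 array at a time moved Fcgr3a between 0.17 and 0.53 and Cd226 between 0.052 and 0.68, the lower value of each without vehicle replicate 1 and the higher without vehicle replicate 2. The activating receptor Klrk1, named after its values were seen, had the largest positive difference of the list, 0.43 ± 0.46. It was 0.41 between the replicates numbered 1 and 0.45 between those numbered 2. With the replicate number as a block, 6.76% of all genes had an unadjusted p under 0.05. In this list of 19, Klrk1 alone did (limma, unadjusted p = 0.0309, adjusted p = 0.701). Ncr1, a defining receptor of natural killer cells, measured 5.65 and 5.05 with ormeloxifene and 5.91 and 5.13 with vehicle. Its arrays followed the replicate number and not the group, and the difference was -0.17 ± 0.32. In the Klr cluster, where Klrd1 lies between Klre1 and Klrk1, the genes resemble each other, and signal shared between neighbours was not tested.

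Of the cytotoxic granule and death ligand genes, 11 of 15 were higher and 4 lower, with a median of 0.15. Leaving out ormeloxifene replicate 1 lowered that median to 0.041, and leaving out vehicle replicate 2 to 0.068. Tnfsf10, which encodes the death ligand TRAIL and is made by many cell types besides natural killer cells, measured 7.62 and 7.45 with ormeloxifene and 6.42 and 6.89 with vehicle. Both ormeloxifene arrays were above both vehicle arrays, and the difference was 0.88 ± 0.24 (limma, unadjusted p = 0.00692, adjusted p = 1.00). The granule protease Ctsw differed by 0.29 ± 0.21, and the granzyme B inhibitor Serpinb9 by -0.27 ± 0.20. Gzma, the other main granzyme, was dim and followed the replicate number, at 3.91 and 4.54 with ormeloxifene and 3.62 and 4.78 with vehicle.

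Interleukin 2 and 15 signalling genes were 8 higher and 6 lower of 14, with a median of 0.06. The median turned to -0.028 when vehicle replicate 1 was left out and was 0.12 when ormeloxifene replicate 2 was. Il15, the cytokine that sustains natural killer cells, measured 6.24 and 6.42 with ormeloxifene and 6.43 and 6.72 with vehicle, a difference of -0.24 ± 0.22 that ran from -0.39 to -0.10 when 1 vehicle array was left out (replicate 1 and replicate 2). Il2ra, the inducible interleukin 2 receptor chain, differed by 0.41 ± 0.27, Il18r1 by -0.27 ± 0.24 and the interferon gamma receptor chain Ifngr1 by 0.26 ± 0.23. Without vehicle replicate 1, Il2ra differed by 0.10 and Ifngr1 by 0.45, and without vehicle replicate 2 by 0.72 and 0.066. Il18r1 differed by -0.028 when ormeloxifene replicate 1 was left out and by -0.50 when ormeloxifene replicate 2 was. Of 15 lymphocyte transcription factors, 10 were higher and 5 lower, with a median of 0.08, which was 0.052 without ormeloxifene replicate 1 and 0.14 without ormeloxifene replicate 2. Nfil3, which in the mouse is required for natural killer cell development and is also active in many other cells, measured 6.49 and 6.34 with ormeloxifene and 7.16 and 7.28 with vehicle. The groups were far apart relative to the gaps between replicates, and the difference was -0.81 ± 0.21 (limma, unadjusted p = 0.00516, adjusted p = 1.00). Tbx21, the T-box factor related to Eomes, differed by -0.04 ± 0.21, Tox, a factor of T cell development, by 0.51 ± 0.23 and Ikzf1 by 0.33 ± 0.24. Leaving out vehicle replicate 1 gave 0.11 for Ikzf1, leaving out vehicle replicate 2 gave 0.55, and Tox was 0.32 when ormeloxifene replicate 1 was left out.

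Lymphocyte chemokines and homing receptors were 8 higher and 5 lower of 13, with a median of 0.10. That median was -0.0013 when ormeloxifene replicate 1 was left out, 0.22 when ormeloxifene replicate 2 was, 0.15 for vehicle replicate 1 and 0.039 for vehicle replicate 2. In the fit without a block, the chemokine Cxcl9 (0.36 ± 0.23), its receptor Cxcr3 (0.34 ± 0.24) and the homing receptor Cxcr6 (0.34 ± 0.22) had the smallest p-values, none under 0.05. For these 3 genes most of the difference came from the replicates numbered 2 (0.65, 0.67 and 0.57) and little from those numbered 1 (0.06, 0.0016 and 0.11), as with Cd8a and Cd2. Leaving out vehicle replicate 2 gave 0.16, 0.12 and 0.15, and leaving out vehicle replicate 1 gave 0.55, 0.55 and 0.52. The chemokine Ccl5, named after its values were seen, measured 9.27 and 8.79 with ormeloxifene and 9.06 and 8.10 with vehicle, the largest positive difference of the list at 0.45 ± 0.34. It was 0.22 between the replicates numbered 1 and 0.68 between those numbered 2. With the block, Ccl5 alone of the 13 had an unadjusted p under 0.05 (limma, unadjusted p = 0.0388, adjusted p = 0.701), beside 6.76% of all genes.

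Markers of other cells were set beside these values. The leukocyte marker Ptprc, known as CD45, measured 6.69 and 7.26 with ormeloxifene and 6.86 and 6.93 with vehicle, a difference of 0.08 ± 0.25. Of 10 genes shared by all leukocytes, 6 were higher and 4 lower, with a median of 0.06. Macrophage markers were higher in 7 of 10 and B cell markers in 3 of 7, with medians of 0.09 and -0.02. In their summed linear signal, the 10 macrophage markers measured 2649 and 2668 with ormeloxifene and 2646 and 2461 with vehicle, and the 7 B cell markers 412 and 376 against 427 and 372. Smooth muscle markers were higher in 8 of 8, with a median of 0.34 and summed signals of 14670 and 13120 with ormeloxifene and 12061 and 10822 with vehicle. Uterine epithelial markers were higher in 4 of 10, with a median of -0.11 and summed signals from 2529 to 2593 with ormeloxifene and from 2307 to 2789 with vehicle. The part of these tissue markers in the values of the T cell and natural killer genes was not tested.

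**Figure D4:**
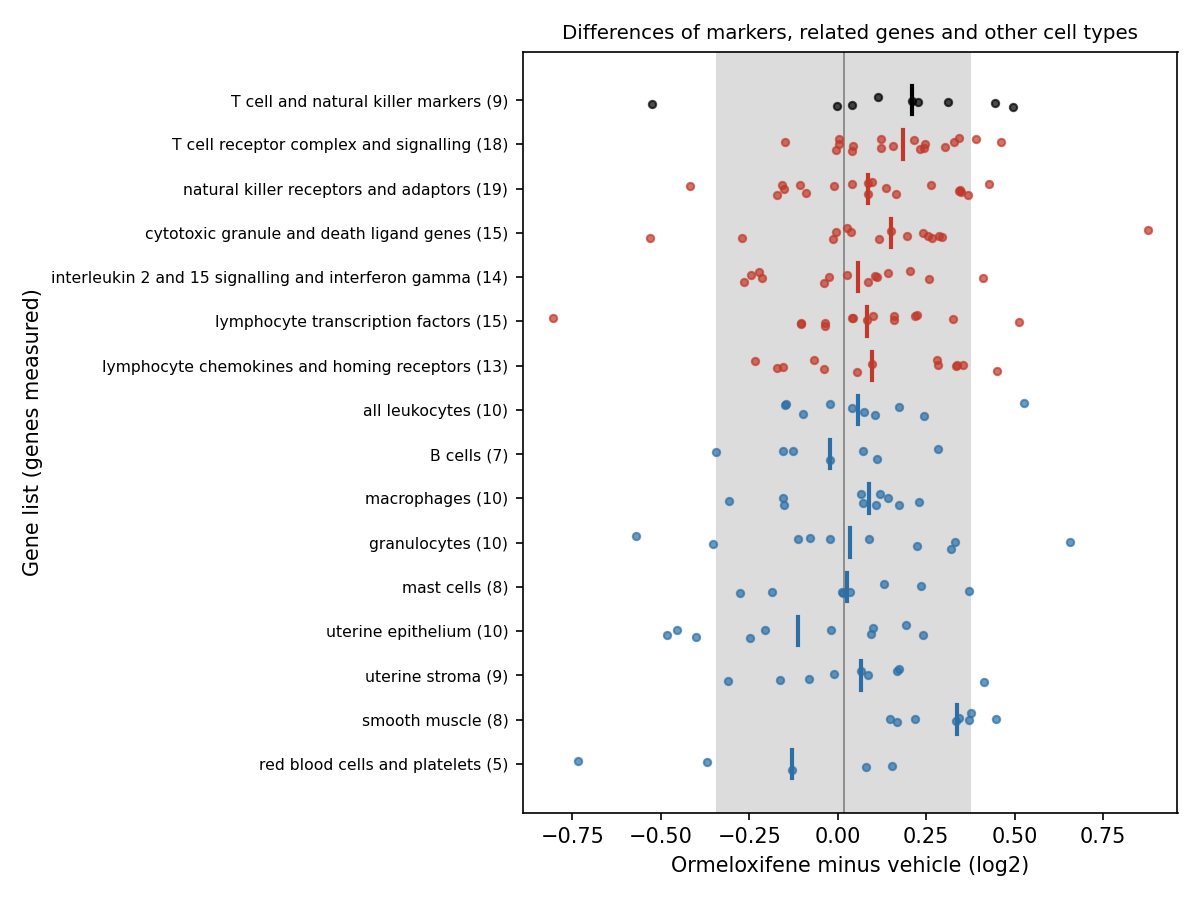
Ormeloxifene minus vehicle (horizontal axis, log2) for each gene of the marker list (black), the 6 lists of related genes (red) and the lists of other cell types (blue); each dot is a gene, thick bars are list medians, the grey band holds the 5th to 95th percentile of all genes tested (-0.34 to 0.37) and the thin line their median. The medians run from -0.13 for red blood cells and platelets to 0.34 for smooth muscle, and Tnfsf10 (0.88) and Nfil3 (-0.81) lie farthest out among the related genes.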

How the data were processed

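Log2 signals of 36685 probe sets on 4 arrays were deposited by the authors. Per the submitters' processing notes they used Affymetrix Expression Console; the sources used here give no version, summary method or genome build, and the values themselves show the log2 scale. Trizol extracts were used, of which 100 ng was labelled with biotin, per the labels' protocols. Column medians ran from 5.67 to 5.93, so quantile normalization over all probe sets was applied, as the design asks in that case. It forces the arrays to 1 distribution and can hide a shift of most genes.

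In the platform annotation 18511 probe sets had 1 symbol, 575 had several and 17599 had none; 18394 of the first matched the GRCr8 gene table, used for names and gene order. Keeping the brightest probe set per gene left 18166 genes. Differences came from limma 3.58.1 in R 4.3.3 (lmFit and eBayes, 2-sided, Benjamini-Hochberg over all genes), with 7.55 degrees of freedom after moderation (2 residual); an exact permutation test of 2 arrays against 2 cannot go below p = 0.333. The p-values measure spread between the labelled biological replicates, which the moderation draws toward the typical spread over all genes. These degrees of freedom are those of the fit without a block. The fit with a block has fewer residual ones, so a gene's own arrays tell less about its spread there. Exactly equal deposited values occurred 1039 times between arrays of the same replicate number and 0 times in the 4 other pairs, so differences within each number are given beside the pooled ones; the labels name no batch.

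The markers and lists were chosen with earlier results of these data known. Named related genes are the 3 with the smallest p in each list, any with an unadjusted p under 0.05, and Cd4, Cd3d, Cd247, Ncr1, Gzma, Il15, Tbx21 and Ptprc; the groups of other cells served as background. Alternatives covered scaling, probe sets, dim genes, the variance model, a block for the replicate number and leaving out each array; where that leaves 1 array in a group, it was assumed to vary like the other group.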

Additional observations from a re-analysis of the deposited data

How the results depend on the processing

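Over all alternatives, 0 of the 9 markers passed an adjusted p under 0.05, and the lowest adjusted p of a marker was 0.414, that of Gzmb with a replicate block on values as deposited. The labels do not say that the replicate numbers pair the arrays. The gaps between replicates 1 and 2 correlated between the groups at r = 0.48 across genes, which are not independent, and with 2 pairs this does not settle it. Across genes, the arrays of a number correlated at r = 0.980 (numbers 1) and 0.983 (numbers 2), and the other pairs at 0.963 to 0.973. What arrays of the same number share was not tested. With the replicate block, 3 markers had an unadjusted p under 0.05 (Cd8a and Cd2 higher, Gzmb lower), where 6.76% of all genes did, and 3 did so with the block on values as deposited (6.4%). All genes at an unadjusted p under 0.05 numbered 399 without the block and 1228 with it, 142 on the values as deposited, 295 with arrays centred on their medians (112 higher, 183 lower), 204 with all probe sets tested, and 706 and 945 without vehicle replicate 1 and 2. Those past the adjusted threshold numbered 5 with the block, 84 with the block on values as deposited, where Tnfsf10 had 0.0492, 4 each with dim genes left out or a trended robust variance, and 1 each with arrays centred on their medians or probe sets averaged; without 1 array they numbered from 0 to 3.

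Without 1 array, from 6 to 8 markers were higher, where from 49.5% to 55% of all genes were, and the marker median ran from 0.13 to 0.24. Prf1 turned to 0.023 on the values as deposited, with or without the block, and to 0.0019 with arrays centred on their medians, and Gzma turned to -0.023 and -0.044 in those settings. Without 1 array, the signs of Cd3g (-0.0060 to 0.23), Nkg7 (-0.16 to 0.24), Prf1 (-0.10 to 0.10), Cd247 (-0.20 to 0.29), Ncr1 (-0.56 to 0.22), Gzma (-0.55 to 0.60), Tbx21 (-0.14 to 0.066) and Ptprc (-0.21 to 0.36) changed; the cause was not tested. Of 547 values under alternatives, 503 stayed the same by direction and threshold, or moved little. Settings that change only the variance model, the block or the genes tested keep each gene's difference, so this count does not measure stability. Leaving out dim genes removed Gzmb, so that the groups did not overlap for 4 markers, beside 26.9% of the genes then tested. The count was also 4 on the values as deposited (17.2% of all genes) and with probe sets averaged (25.7%). The table gives no background signal. The means of 1344 olfactory and vomeronasal receptor genes, a set chosen after seeing the data, ran from 2.45 to 6.03 between their 5th and 95th percentiles. Above that range lay 4 of the 9 markers (Cd8a, Nkg7, Klrd1 and Eomes), and Cd3e, Cd3g, Cd2, Prf1 and Gzmb lay within it. Klrd1, at a mean of 6.04, was just above it and at the 44.3rd percentile of mean signal. Most genes tested therefore also lay above it.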

Other observations

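Most genes tested differed more between the replicate numbers than between the groups. Among them were several natural killer and lymphocyte genes, picked out after their values were seen. Klrk1, the activating receptor NKG2D, measured 5.74 with ormeloxifene and 5.33 with vehicle in the arrays numbered 1, and 6.88 and 6.43 in those numbered 2. Id2, a transcriptional regulator needed for natural killer cells in the mouse, went the other way, at 6.44 and 6.32 in the arrays numbered 1 and 5.33 and 5.13 in those numbered 2. An absolute difference of at least 1 between the numbers was seen in 1.14% of all genes. The difference between numbers exceeded that between groups in 14 of 19 natural killer receptors and adaptors and in 4 of the 9 markers. It did so in 7 of 15 lymphocyte transcription factors, beside 63.9% of all genes tested. The median absolute difference between numbers was 0.42 in the natural killer list and 0.22 over all genes. The direction was not shared within the natural killer list. Klri2 and Sh2d1b were higher in number 2 of both groups, and Sh2d1a, Klre1 and Ncr1 were lower in number 2 of both groups. Klre1, Klri2, Sh2d1a and Sh2d1b were dim, at the 5.86th, 8.06th, 11.0th and 16.6th percentile of mean signal. Ncr1, Id2 and Klrk1 were at the 28.8th, 38.3rd and 45.5th. The part of low signal in the median of the natural killer list was not tested.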
